A study of Arabidopsis thaliana with 6 samples.

Results

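Pericentromeric heterochromatin is the dense, transposon-rich chromatin on both sides of each centromere. The genes described here are the 7075 of 32947 genes in the deposited tables (21.5%) whose start lies inside 1 of 5 windows, at 11.5 to 17.7 Mb of chromosome 1, 1.1 to 7.2 Mb of chromosome 2, 10.3 to 17.3 Mb of chromosome 3, 1.5 to 6.3 Mb of chromosome 4 and 9.0 to 16.0 Mb of chromosome 5. They number 1250, 1498, 1624, 1090 and 1613 in that order of chromosomes. The other 25872 genes are called arm genes below. Leaf mRNA of Arabidopsis thaliana, ecotype Columbia-0, was sequenced in 6 libraries. The libraries came from the nrpe1-11 mutant (nrpe1), the idn2-1 mutant (idn2), the triple mutant that carries idn2-1, idnl1-1 and idnl2-1, the double mutant that carries idnl1-1 and idnl2-1 (n = 1 each), and wild type (WT, n = 2). Every library was made from leaves at 3 weeks of age, grown in constant light, and the labels name no other allele or agent. The labels do not say how many plants were pooled or whether the WT libraries came from separate plants, so p-values below reflect how far these particular samples scatter, and that scatter may be technical. The question of the series is how leaf mRNA changes when RNA-directed DNA methylation is disturbed.

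Transposons in pericentromeric chromatin are kept silent by cytosine methylation and by methylation of histone H3 on lysine 9. The bodies of long elements are held silent mainly by maintenance enzymes such as MET1 and the CMT methyltransferases with the remodeller DDM1. RNA-directed DNA methylation (RdDM) acts mostly on short elements and on the edges of long ones: RNA polymerase IV starts the small RNAs, and RNA polymerase V makes the scaffold transcripts at which the methyltransferase DRM2 is recruited. The catalytic subunit of RNA polymerase V is NRPE1, IDN2 is an RNA-binding protein that acts downstream of it, and IDNL1 and IDNL2 are its relatives.

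The promoter windows of 3 loci that rose are shown, because limma called them in different sets of mutants. They are of the annotation class pseudogene, a class that also holds transposable element genes in this reference. Each runs from 250 bases before to 50 after the annotated start in RefSeq TAIR10.1, is written 5′ to 3′ on the gene's strand, and has the dinucleotide CG, the main context of maintained methylation, in capitals. AT5G35935 rose in all 4 mutants, AT2G04460 in nrpe1 and the triple mutant, and AT5G27947 had reads in nrpe1 only. Their windows lie at chr5:14089842-14090141, chr2:1548950-1549249 and chr5:9982807-9983106, all on the minus strand.
AT5G35935: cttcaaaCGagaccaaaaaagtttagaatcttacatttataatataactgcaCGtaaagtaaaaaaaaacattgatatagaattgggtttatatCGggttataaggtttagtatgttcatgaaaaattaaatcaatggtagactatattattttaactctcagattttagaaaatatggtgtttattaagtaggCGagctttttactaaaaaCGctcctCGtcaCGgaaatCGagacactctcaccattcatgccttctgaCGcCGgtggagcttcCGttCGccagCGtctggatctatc
AT2G04460: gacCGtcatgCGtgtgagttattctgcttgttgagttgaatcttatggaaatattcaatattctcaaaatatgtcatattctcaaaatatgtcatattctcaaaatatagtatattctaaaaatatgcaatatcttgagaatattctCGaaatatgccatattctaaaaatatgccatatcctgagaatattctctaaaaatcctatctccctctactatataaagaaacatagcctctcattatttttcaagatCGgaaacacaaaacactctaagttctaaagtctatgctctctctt
AT5G27947: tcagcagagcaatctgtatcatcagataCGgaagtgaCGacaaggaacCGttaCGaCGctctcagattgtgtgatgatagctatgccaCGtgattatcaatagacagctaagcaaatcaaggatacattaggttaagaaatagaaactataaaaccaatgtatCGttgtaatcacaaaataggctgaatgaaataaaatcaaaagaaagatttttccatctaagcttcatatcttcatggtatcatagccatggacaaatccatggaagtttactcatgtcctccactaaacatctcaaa
The 3 windows hold 13, 4 and 7 CG dinucleotides, against a median of 7 over pericentromeric pseudogene-class genes and of 6 over pericentromeric protein-coding genes. The AT2G04460 window is poor in CG and has a GC content of 29.7%, against a median of 36.7% in its class.

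The libraries fell into 2 depths, 2737943 to 3078153 reads in nrpe1, idn2, the triple mutant and WT replicate 1, and 5819494 and 5975802 reads in the double mutant and WT replicate 2. Reads were recovered from the deposited RPKM (reads per kilobase of gene span, scaled to library depth), in which each gene carries 1 added read. The mutated genes lie outside the windows. IDNL1 had 1 and 6 reads in the triple and double mutants against 50 and 144 in WT, and IDNL2 had 5 and 11 against 14 and 46. NRPE1 had 138 reads in the library labelled nrpe1 and IDN2 118 and 136 in idn2 and the triple mutant, against 53 and 202 (NRPE1) and 163 and 337 (IDN2) in WT, so these counts do not check those labels. Markers of flower and anther summed to 29.2 RPKM in nrpe1 with 0 of 6 at 0 reads, against 1.58 to 2.94 RPKM in the other mutants and 2.86 and 4.59 RPKM in WT, where LTP12 and GRP19 were at 0 reads. The 5 leaf markers summed to 1188 to 1259 RPKM in the 4 shallower libraries, 712 RPKM in the double mutant and 698 RPKM in WT replicate 2. The 3 root markers summed to 14.4 RPKM in nrpe1 against 36.7 to 46.1 RPKM in the other mutants and 44.6 and 40.1 RPKM in WT. In every library 1 gene made up nearly all of the root sum, and in nrpe1 and WT replicate 1 it was PYK10. The 2 other root markers were at 0 reads in those 2 libraries, and 1 of the 3 was at 0 in each other library. The seed markers summed to at most 0.359 RPKM in any library.

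For most pericentromeric genes no leaf mRNA was detectable at this depth in any genotype. Of the 7075 genes, 4707 (66.5%) had 0 reads in every one of the 6 libraries, against 4522 of 25872 arm genes (17.5%). Pseudogene-class genes made up 3686 of the pericentromeric genes (52.1%) and 3.71% of the arm genes, and 3299 of these 3686 (89.5%) had 0 reads throughout. Protein-coding genes numbered 3116 (44.0%) in the windows, of which 1198 (38.4%) had 0 reads throughout, against 12.8% of protein-coding arm genes. The remaining members were 133 RNA genes, among them 60 tRNA genes, 19 microRNA genes and 4 snoRNA genes, and 140 identifiers with no match in the reference annotation. In bulk leaf tissue, fewer cells with a transcript and less of it per cell cannot be told apart.

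The share of pericentromeric genes with mRNA was almost the same in mutants and WT. With 1 RPKM or more, after the added read was taken off, counted as expressed, the share was 22.0% in nrpe1 (exact 95% interval 21.0% to 23.0%), 21.6% in idn2 (20.6% to 22.6%), 21.3% in the triple mutant (20.4% to 22.3%) and 22.3% in the double mutant (21.4% to 23.3%), against 21.5% (20.5% to 22.5%) and 22.2% (21.2% to 23.2%) in WT. The intervals, which cover counting error only, overlap between every pair of libraries, and the 2 deeper libraries hold the highest shares. Each library was also thinned to the reads of the shallowest. The shares were then 22.0%, 21.7%, 21.3% and 22.3% in nrpe1, idn2, the triple and the double mutant, against 21.5% and 22.3% in WT. The double mutant and WT replicate 2 thus stayed highest at equal depth, and what sets them apart was not tested. Arm genes were expressed at 65.7% to 67.9% in the mutants and at 66.3% and 68.4% in WT. The contrast remained within the protein-coding class, at 45.4% to 47.2% in the mutants and 45.7% and 46.8% in WT inside the windows, against 70.5% to 72.5% in the mutants and 71.0% and 73.2% in WT on the arms. Pseudogene-class genes were expressed at 1.68% to 2.09% in the mutants and 1.82% and 1.98% in WT inside the windows, against 13.6% to 14.8% in the mutants and 14.2% and 14.7% in WT on the arms. Once expressed, pericentromeric genes were not far below arm genes, with medians of 11.9 to 13.8 RPKM in the mutants and 11.7 and 14.0 RPKM in WT, against 13.1 to 15.2 and 13.0 and 15.2 RPKM on the arms.

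The share of genes expressed was higher with distance from the middle of the windows. In the innermost 0.2 of the windows, by distance from the midpoint, 85.5% of 1193 genes were of the pseudogene class and 4.19% to 4.27% were expressed in the mutants, against 4.11% and 4.19% in WT. In the outermost 0.2, next to the borders, 21.3% of 1658 genes were of that class and 39.3% to 41.6% were expressed in the mutants, against 40.0% and 40.9% in WT. Protein-coding genes alone showed the same order, from 25.2% to 25.9% expressed in the innermost 0.2 in the mutants, against 25.2% in both WT libraries, up to 51.7% to 54.2% in the outermost 0.2, against 52.4% and 53.3% in WT. Across the window borders the share stepped again: of genes within 0.5 Mb inside a border 38.2% to 40.7% were expressed in the mutants and 39.5% and 40.1% in WT, while of those within 0.5 Mb outside 57.6% to 60.6% were expressed in the mutants and 59.3% and 60.9% in WT. Gene class changed there too, with 21.7% of the pseudogene class just inside and 7.49% just outside. Of protein-coding genes in the first 0.2 outside, 64.3% to 67.3% were expressed in the mutants, against 66.1% and 67.9% in WT. The windows therefore hold flanks where more genes were expressed, as well as a core rich in the pseudogene class where few were. No chromatin mark was measured in these libraries, so the name heterochromatin rests on position. By chromosome, the share expressed was highest in the chromosome 1 window, 26.2% to 27.2% in the mutants against 26.2% and 27.3% in WT, and lowest in the chromosome 2 window, 18.2% to 19.0% in the mutants against 18.4% and 19.4% in WT.

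**Figure D1:**
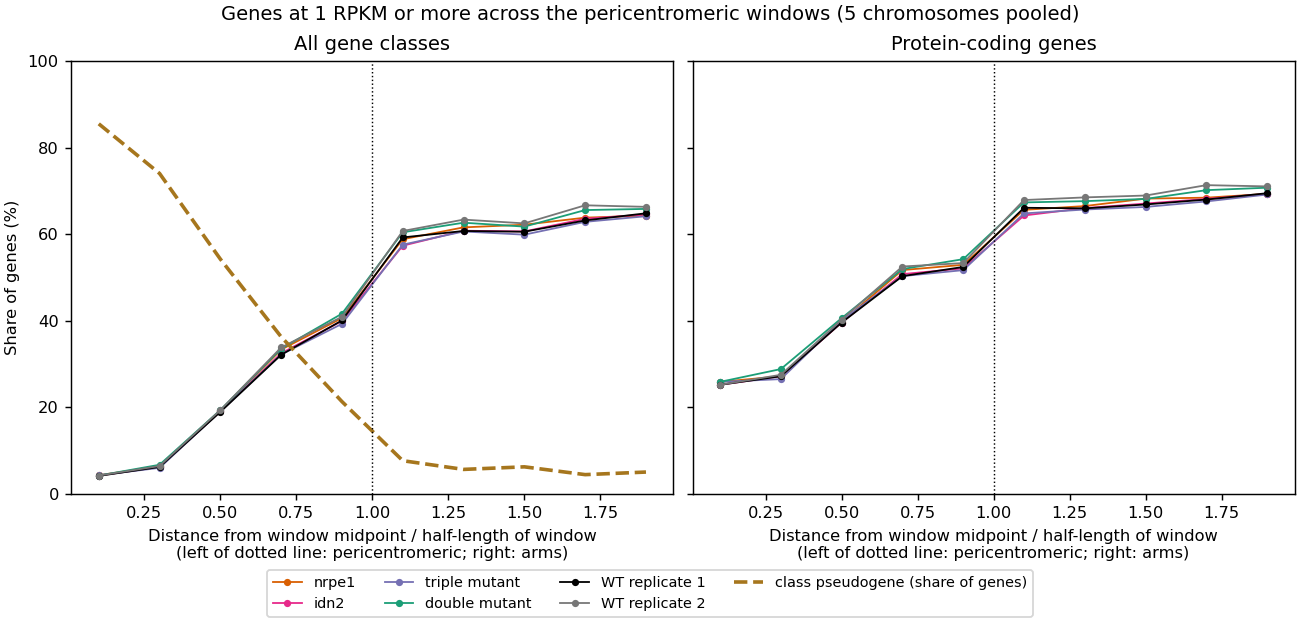
Share of genes (y axis, %) at 1 RPKM or more in each of the 6 libraries, for all genes (left) and protein-coding genes (right), in 10 bins of distance from the window midpoint divided by the distance from midpoint to border (x axis, no unit), with the 5 chromosomes pooled. The dashed line is the share of genes of the pseudogene class, and the lines of the libraries lie on each other and climb outwards from 4.19% to 4.27% in the mutants and 4.11% and 4.19% in WT in the innermost bin.

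Pericentromeric genes took 8.23%, 8.22%, 8.11% and 8.0% of all reads in nrpe1, idn2, the triple and the double mutant, against 8.10% and 7.96% in WT. The exact 95% intervals of nrpe1 (8.20 to 8.26%) and idn2 (8.19 to 8.25%) lay above those of both WT libraries (8.07 to 8.14% and 7.94 to 7.98%), but they cover counting error only. The WT intervals did not overlap each other either, and the deeper libraries, the double mutant and WT replicate 2, were lowest. Pseudogene-class genes took 1583, 1392, 1306 and 1673 of every 1000000 reads in nrpe1, idn2, the triple and the double mutant, against 1308 and 1613 in WT. Here the double mutant and WT replicate 2, the deeper libraries, were the highest and nrpe1 was the highest of the 4 shallower ones. AT2G11240 had 27.4, 30.3, 28.2 and 37.8 RPKM in the mutants, in the order just given, against 29.6 and 33.3 RPKM in WT, and AT2G06950 had 37.2, 27.4, 25.7 and 29.4 RPKM against 27.6 and 31.6 RPKM. SADHU1-1 (AT2G10410), a short non-LTR retrotransposon, had 170, 160, 144 and 116 RPKM in the mutants against 135 and 125 RPKM in WT, but its span overlaps AT2G10405, so the reads cannot be assigned to it alone.

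Chromosome 2 carries a recent insertion of mitochondrial DNA next to its centromere. Alignment of the mitochondrial genome to chromosome 2 of TAIR10.1 placed it at chr2:3250465-3509757, where 106 members lie, 53 of them protein coding. Together these 106 genes had 23, 15, 22 and 79 reads in nrpe1, idn2, the triple and the double mutant, against 19 and 60 in WT, and 92 of them had 0 reads throughout. The higher sums are those of the 2 deeper libraries. The ribosomal RNA gene AT3G41768 had 8, 17, 12 and 123 reads in the mutants against 6 and 41 in WT, so the double mutant stood apart from the others in residual ribosomal RNA. How the authors treated reads that match several places is not known from the labels, and values of repeated loci are uncertain for that reason.

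Differences from WT were tested with limma on log2(RPKM + 1) over all 22362 genes with 1 RPKM or more in some library, of which 2284 were pericentromeric. A member that passed only through 1 high library had to differ, and short genes pass through the added read: 517 of the 2284 had 0 reads everywhere, and 1574 had 10 reads or more in some library. The limit of 10 reads in some library, used below, also lets genes in through 1 high library. The WT pair alone supplies a residual degree of freedom, and the spread used for a gene is the one that the trend gives at its level. The WT libraries themselves differed 2-fold or more in 27 tested members, 13 higher in replicate 2 and 14 higher in replicate 1. Among the 20078 tested arm genes, 153 were higher in replicate 2 and 56 higher in replicate 1 by the same rule. All 4 comparisons share the same WT libraries.

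In nrpe1, 27 pericentromeric genes rose and 47 fell at a Benjamini-Hochberg adjusted p under 0.05. Over all genes tested, 0.666% rose and 2.59% fell. The rises were 1.18% of the tested pericentromeric genes and 0.608% of the tested arm genes, and the falls 2.06% and 2.65%. Among genes with 10 reads or more in some library, 1.59% of pericentromeric and 0.619% of arm genes rose, and 2.99% and 3.02% fell. Genes silent in WT that passed this limit through nrpe1 alone could rise but not fall. The difference between the regions was not tested, and for rises it moved with the scaling: with median-of-ratios scaling 1.88% of pericentromeric and 1.67% of arm genes rose (over all genes 1.69%), and with the added read taken off 3.45% and 1.39% rose (over all genes 1.56%). With quantile normalization 1.27% of pericentromeric and 1.14% of arm genes rose. The falls numbered 91 with median-of-ratios scaling, or 3.98% of pericentromeric and 4.71% of arm genes (over all genes 4.64%), and 70 with quantile normalization (over all genes 3.65%). The flower and anther markers summed to 29.2 RPKM in this library, against 2.86 and 4.59 RPKM in WT. The root markers, nearly all 1 gene, summed to 14.4 RPKM, against 44.6 and 40.1 RPKM in WT. The part of these tissues in the calls was not tested. The size rule, which asks for a 2-fold difference from each WT library in the same direction, counted 29 up and 49 down (0.599% and 2.13% of all genes tested). Against WT replicate 2 alone it counted 46 up and 75 down (1.03% and 3.77% of all genes), and against WT replicate 1 alone 50 up and 59 down (1.68% and 2.54%).

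In idn2, 6 members rose and 26 fell, against 0.246% and 1.41% of all genes tested. As shares of the tested genes the rises were 0.263% of members and 0.244% of arm genes, and the falls 1.14% and 1.44%. With median-of-ratios scaling 15 rose and 48 fell (0.733% and 2.55% of all genes), and with the added read taken off 19 rose (0.668% of all genes). By the size rule 6 members were up and 24 down (0.219% and 1.49% of all genes tested). Against WT replicate 2 alone that rule counted 18 up and 52 down (0.478% and 2.92% of all genes), and against WT replicate 1 alone 16 and 34 (0.85% and 1.86%).

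The triple mutant had 4 rises and 5 falls, against 0.0715% and 0.228% of all genes tested. Under median-of-ratios scaling 6 rose and 23 fell (0.367% and 0.944% of all genes), and with the added read taken off 12 rose and 22 fell (0.289% and 1.03%). The size rule counted 6 up and 19 down (0.116% and 0.595% of all genes), against WT replicate 2 alone 16 and 49 (0.286% and 1.77%) and against WT replicate 1 alone 12 and 27 (0.586% and 0.957%). The double mutant had 3 rises and 5 falls by limma, against 0.188% and 0.157% of all genes tested. Its balance moved with the processing, to 12 rises and 25 falls with median-of-ratios scaling (0.496% and 0.756% of all genes) and to 15 rises and 9 falls with the added read taken off (0.609% and 0.389%). The size rule counted 8 up and 8 down (0.201% and 0.335% of all genes), against WT replicate 2 alone 14 and 16 (0.335% and 0.778%) and against WT replicate 1 alone 33 and 20 (1.36% and 0.666%).

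The median log2 difference of the tested members was 0.15, 0.09, 0.02 and -0.03 in nrpe1, idn2, the triple and the double mutant, beside 0.02, -0.02, -0.05 and 0.04 over all genes tested. These medians include the 517 tested members with 0 reads everywhere. The RPKM of those 517 is the added read alone and differs between libraries by depth only. Among members with 10 reads or more the medians were 0.01, -0.02, -0.08 and 0.08, and those of arm genes with 10 reads or more were -0.02, -0.05, -0.08 and 0.07.

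**Figure D2:**
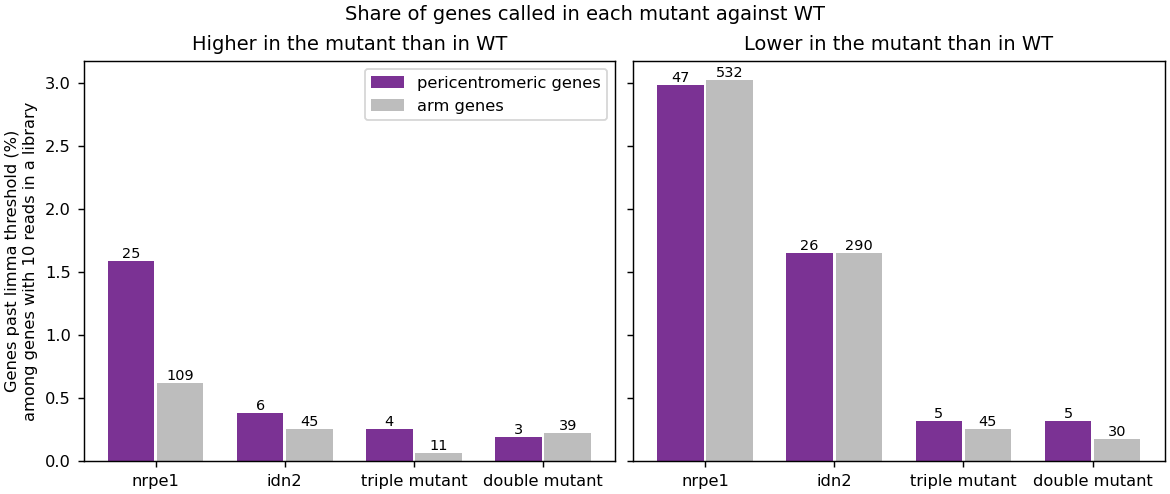
Share (y axis, %) of genes with 10 reads or more in some library that passed limma at an adjusted p under 0.05, higher (left) or lower (right) in each mutant (x axis) than in WT, for pericentromeric genes beside arm genes. Numbers above the bars count the genes. In percentage points the widest gap is for rises in nrpe1, 25 pericentromeric genes (1.59%) beside 109 arm genes (0.619%). Genes silent in WT that reached 10 reads in a mutant alone could rise but not fall. Rises in the triple mutant were 4 pericentromeric genes (0.254%) beside 11 arm genes (0.0625%).

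Most calls lay in the outer parts of the windows, where most tested genes lie. In nrpe1 the inner 0.5 of the windows held 4 rises and 3 falls among 520 tested genes, of which 251 had 10 reads or more, and the outer 0.5 held 23 rises and 44 falls among 1764, of which 1323 had 10 reads or more. Per window, rises and falls in nrpe1 numbered 5 and 9 on chromosome 1, 7 and 9 on chromosome 2, 5 and 11 on chromosome 3, 2 and 5 on chromosome 4, and 8 and 13 on chromosome 5, so every window held both directions. Tested members numbered 464, 442, 510, 290 and 578 in that order of chromosomes, and differences between windows were not tested. Of the falls 45 of 47 were protein coding, beside 1464 of the 1574 members with 10 reads or more and 524 of 532 falls on the arms. Rises were 16 protein-coding genes, 8 pseudogene-class genes and 3 RNA genes. The 8 rises of the pseudogene class were among 264 tested (3.03%), 78 of them with 10 reads or more, beside 7 of 276 (2.54%), 141 of them with 10 reads or more, on the arms. The falls of this class were AT2G04110 and AT3G28160.

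Few pseudogene-class genes without reads in WT reached 10 reads in a mutant. Of 3471 pericentromeric pseudogene-class genes with 0 reads in both WT libraries, 2 had 10 reads or more in nrpe1, and none had in idn2, the triple or the double mutant. Genes of this class in the windows with any read, whether or not read in WT, numbered 214, 158, 143 and 234 in nrpe1, idn2, the triple and the double mutant. They numbered 138 and 200 in WT, and the double mutant and WT replicate 2 are the deeper libraries. Among 1326 protein-coding members with 0 reads in both WT libraries, 1 reached 10 reads in nrpe1 and none in the other mutants. On the arms the numbers in nrpe1 were 4 of 697 and 11 of 3698. AtMu1 (AT4G08680), a DNA transposon used as a reporter of silencing, had 0 reads in all 6 libraries.

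AT5G35935 was the pseudogene-class locus that rose in every mutant. This locus of chromosome 5 (chr5:14100618-14107121 in TAIR8) had 89, 91, 85 and 260 reads in nrpe1, idn2, the triple and the double mutant, against 3 and 2 in WT. Its levels were 4.45, 4.85, 4.68 and 6.86 RPKM in the mutants against 0.222 and 0.0768 RPKM in WT, so all 4 mutants lay far above both WT libraries. The read ratios to WT were 50.4 (20.8 to 159) in nrpe1, 55.0 (22.7 to 173) in idn2, 53.0 (21.9 to 167) in the triple mutant and 77.9 (32.9 to 242) in the double mutant, with exact 95% intervals in parentheses that cover counting error only. On the log2(RPKM + 1) scale, which understates changes of low genes, it rose by 2.25 (SE 0.58, adjusted p = 0.00488) in nrpe1, by 2.35 (SE 0.58, adjusted p = 0.00441) in idn2, by 2.31 (SE 0.58, adjusted p = 0.0285) in the triple and by 2.78 (SE 0.58, adjusted p = 0.000935) in the double mutant. The intervals of the ratios overlap between all 4 mutants, and differences between mutants were not tested. With no filter on low values the limma calls in nrpe1, idn2 and the triple mutant were lost, at adjusted p = 0.0555, 0.0598 and 0.254.

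AT2G04460, near the outer edge of the chromosome 2 window, followed another pattern. It had 25, 2, 20 and 33 reads in the mutants, nrpe1, idn2, triple and double in turn, against 3 and 5 in WT, or 14.7, 1.81, 13.1 and 10.2 RPKM against 2.54 and 1.75 RPKM. The idn2 library lay within the WT range and the other 3 mutants above it. It rose by 2.33 (SE 0.56, adjusted p = 0.00168) in nrpe1 and by 2.17 (SE 0.56, adjusted p = 0.0372) in the triple mutant; the double mutant, with a difference of 1.84 (SE 0.56, adjusted p = 0.174), met the size rule but not limma. AT2G16310 had 18, 9, 5 and 33 reads in the same order of mutants against 1 and 2 in WT, with every mutant above both WT libraries. It rose by 2.16 (SE 0.58, adjusted p = 0.00802) in nrpe1, a call lost with no filter on low values (adjusted p = 0.0769), and the double mutant's difference was 2.1 (SE 0.58, adjusted p = 0.0702).

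The other pseudogene-class rises were in nrpe1 alone by limma, and whether the mutants differ from each other was not tested. AT4G04293 had 101 reads in nrpe1 and 22, 9 and 45 in the other mutants, against 10 and 36 in WT, a ratio of 6.22 (4.34 to 9.01) in nrpe1. On chromosome 5, AT5G27845, AT5G27925 and AT5G27947 lie within chr5:9868352-9982860 (TAIR8), a stretch of 115 kb with 22 members, 12 of them tested and 8 with 10 reads or more. AT5G27845 had 36, 0, 8 and 18 reads in the mutants against 0 and 3 in WT, above both WT libraries in nrpe1 and the triple and double mutants and at 0 in idn2. AT5G27925 and AT5G27947 had 24 and 25 reads in nrpe1 and 0 in all 5 other libraries, at least 22.6-fold and 23.6-fold higher than WT against a floor of 3 counts over the WT pair. AT1G36185 had 17 reads in nrpe1 and 0 in the other mutants, against 0 and 1 in WT. With quantile normalization AT5G27925, AT5G27947 and AT1G36185 lost their calls, and AT1G36185 did so with median-of-ratios scaling too. The stretch was picked out after its values were seen. It is among 9 groups of 3 or more genes called in nrpe1, each gene at most 0.15 Mb from the next. These rises were seen in the library whose flower and anther markers were high, and the part of those tissues in them was not tested.

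**Figure D3:**
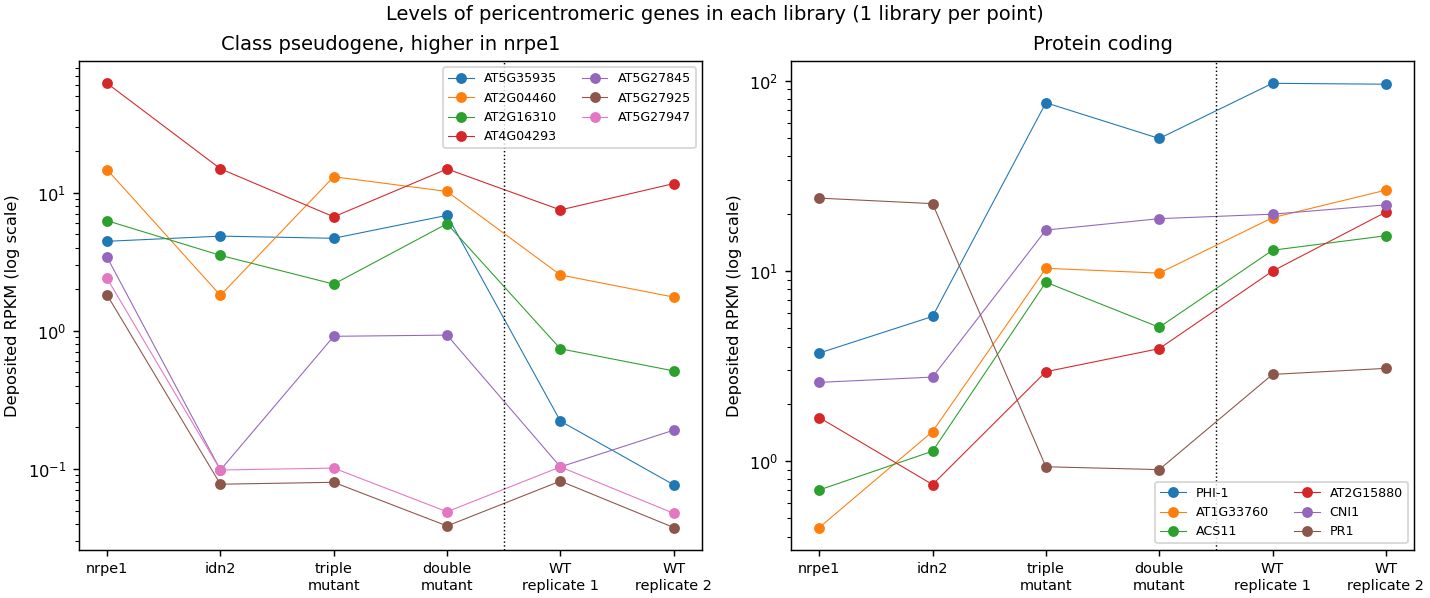
Deposited RPKM (y axis, log scale) of 7 pseudogene-class genes that rose in nrpe1 (left) and 6 protein-coding genes (right), with 1 point per library, mutants left of the dotted line and WT right of it. AT5G35935 lies at 4.45 to 6.86 RPKM in the mutants and 0.222 and 0.0768 RPKM in WT, while PHI-1 lies at 3.69 and 5.76 RPKM in nrpe1 and idn2, 76.6 and 49.7 RPKM in the triple and double mutants, and 97.0 and 95.9 RPKM in WT; lowest values include the added read.

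Among protein-coding members, the rises in nrpe1 were led by genes of low level in WT. AT1G33840, which encodes a LURP-one-like protein, had 53 reads in nrpe1 and 3, 2 and 3 in idn2, the triple and the double mutant, against 1 and 1 in WT, a ratio of 75.0 (19.8 to 636) in nrpe1. It rose by 3.23 (SE 0.47, adjusted p = 1.25e-09). FTM1 (AT1G43800), a stearoyl carrier protein desaturase, had 30.7, 4.22, 3.85 and 2.99 RPKM in the mutants against 1.71 and 4.57 RPKM in WT and rose in nrpe1 by 3.03 (SE 0.57, adjusted p = 1.06e-05). AT1G47980, whose product is named desiccation-like, had 46 reads in nrpe1 and 1, 0 and 1 in the other mutants, against 0 and 0 in WT, at least 43.4-fold higher in nrpe1 against the floor. AT5G26270, of unknown function, had 39.4, 7.17, 5.29 and 7.83 RPKM in the mutants against 3.95 and 5.14 RPKM in WT and rose by 2.87 (SE 0.45, adjusted p = 2.87e-08). In each of these 4 genes nrpe1 stood above all 5 other libraries. The other mutants overlapped WT for FTM1 and lay slightly above it for AT5G26270. AT3G28899, a very short gene, had 14, 0, 2 and 7 reads in the mutants against 0 and 1 in WT and rose by 3.23 (SE 0.58, adjusted p = 3.08e-06), on a ratio whose interval runs from 6.03 to 1676. These rises, too, were seen in the library whose flower and anther markers were high, and the part of those tissues in them was not tested.

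PR1 and LURP1, defence genes that lie close to each other on chromosome 2, rose in both nrpe1 and idn2. PR1 (AT2G14610), the standard marker of salicylic acid defence, had 56, 49, 1 and 3 reads in nrpe1, idn2, the triple and the double mutant, against 5 and 13 in WT. At 24.1, 22.6, 0.932 and 0.900 RPKM in the mutants and 2.85 and 3.07 RPKM in WT, nrpe1 and idn2 lay above WT and the triple and double mutants below it. PR1 rose by 2.67 (SE 0.58, adjusted p = 0.000296) in nrpe1 and by 2.57 (SE 0.58, adjusted p = 0.00109) in idn2, while the triple mutant's difference was -1.04 (SE 0.58, adjusted p = 1.00) and the double mutant's -1.06 (SE 0.58, adjusted p = 1.00). LURP1 (AT2G14560), a gene induced late in the response to downy mildew, had 34.7, 29.5, 16.1 and 15.8 RPKM in the mutants against 10.3 and 11.1 RPKM in WT, with all 4 mutants above both WT libraries, and rose by 1.61 (SE 0.26, adjusted p = 9.40e-08) and by 1.38 (SE 0.26, adjusted p = 1.80e-05) in nrpe1 and idn2. With AT2G14460, which rose in nrpe1 by 0.84 (SE 0.22, adjusted p = 0.00654), they make the 3 called genes of chr2:6161575-6249545 (TAIR8), where 19 members lie and 7 were tested; this group was also picked out after its values were seen. AT3G45210, annotated as a subunit of the general transcription factor TFIID, had 86.7, 89.0, 74.6 and 69.6 RPKM in the mutants against 43.5 and 44.9 RPKM in WT, all 4 mutants above both WT libraries, and passed limma in nrpe1 (0.96, SE 0.25, adjusted p = 0.00646) and idn2 (0.99, SE 0.25, adjusted p = 0.00642). AT5G35480 also rose in nrpe1 and idn2, by 1.11 (SE 0.22, adjusted p = 3.62e-05) and 0.93 (SE 0.22, adjusted p = 0.00208).

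Smaller rises in nrpe1 included a gene of the acidic ribosomal protein family and a histone gene. AT3G28500, of the ribosomal family, had 63.9, 22.7, 24.0 and 23.2 RPKM in the mutants against 23.9 and 33.3 RPKM in WT and rose by 1.15 (SE 0.22, adjusted p = 1.42e-05); nrpe1 stood above the 5 other libraries, which overlapped. AT3G46320, of the histone family, rose by 0.81 (SE 0.24, adjusted p = 0.0241), a call lost with no filter on low values (adjusted p = 0.0555). The microRNA precursor gene MIR860 (AT5G26038) had 97.7 RPKM in nrpe1 and 43.9, 36.8 and 56.0 RPKM in the other mutants, against 40.4 and 57.2 RPKM in WT, but it overlaps AT5G26030 and the strand of reads is not known. RAP2.9, an ethylene-response-factor family gene, AT2G03850, a late embryogenesis abundant family gene, AT3G29110, a terpenoid cyclase family gene, and AT5G37940, a dehydrogenase family gene, rose on 8, 7, 16 and 17 reads in nrpe1, against 0 and 3, 0 and 1, 0 and 1, and 0 and 10 in WT. Each of these 4 calls was lost under some alternative, RAP2.9 with a pseudocount of 0.25 and with no filter, AT2G03850 and AT3G29110 with median-of-ratios scaling and quantile normalization, and AT5G37940 with quantile normalization. The snoRNA gene AT2G05765 passed limma in all 4 mutants, but on 11, 2, 3 and 11 reads against 0 and 3 in WT. It is very short, so that single reads move its RPKM, and its read ratio in idn2 was 2.01 (0.168 to 17.6), an interval that includes 1.

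The falls in nrpe1 were led by PHI-1 (AT1G35140), of the phosphate-responsive family. It had 12, 18, 244 and 328 reads in nrpe1, idn2, the triple and the double mutant, against 303 and 651 in WT. Its levels of 3.69, 5.76, 76.6 and 49.7 RPKM in the mutants and 97.0 and 95.9 RPKM in WT put nrpe1 and idn2 far below every other library, and the triple and double mutants below WT. It fell by 4.38 (SE 0.22, adjusted p = 8.82e-86) in nrpe1, fell by 3.85 (SE 0.22, adjusted p = 5.36e-66) in idn2 and fell by 0.94 (SE 0.22, adjusted p = 0.00580) in the double mutant. Its relative EXO (AT4G08950), a growth gene responsive to brassinosteroids and among the 5 members with the highest WT level on chromosome 4, had 52.9, 46.9, 175 and 118 RPKM in the mutants against 197 and 153 RPKM in WT, and fell by 1.69 (SE 0.33, adjusted p = 4.06e-05) in nrpe1 and fell by 1.86 (SE 0.33, adjusted p = 4.93e-06) in idn2. With median-of-ratios scaling both EXO calls were lost.

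AT1G33760, an ethylene-response-factor family gene, had 0, 2, 20 and 40 reads in the mutants against 37 and 114 in WT. No read was found in nrpe1, at least 17.8-fold lower than WT against a floor of 3 counts in that library, and it fell by 4.02 (SE 0.50, adjusted p = 2.31e-13) in nrpe1 and fell by 3.28 (SE 0.50, adjusted p = 1.24e-08) in idn2. ACS11 (AT4G08040), an enzyme that makes the ethylene precursor, had 0.704, 1.13, 8.71 and 5.05 RPKM in the mutants against 12.8 and 15.3 RPKM in WT and fell by 3.14 (SE 0.57, adjusted p = 3.98e-06) in nrpe1 and fell by 2.82 (SE 0.57, adjusted p = 0.000101) in idn2. CNI1 (AT5G27420), a ubiquitin ligase of the response to the balance of carbon and nitrogen, had 2.59, 2.76, 16.4 and 18.8 RPKM in the mutants against 19.9 and 22.2 RPKM in WT and fell by 2.62 (SE 0.37, adjusted p = 6.35e-10) in nrpe1 and fell by 2.55 (SE 0.37, adjusted p = 3.34e-09) in idn2. For all 3 genes nrpe1 and idn2 lay below all other libraries, and the triple and double mutants lay below both WT libraries. AT2G15880, a leucine-rich repeat family gene, was below both WT libraries in every mutant, with 1.69, 0.752, 2.95 and 3.90 RPKM against 9.97 and 20.4 RPKM in WT, and passed limma in nrpe1 and idn2.

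Several genes of transcriptional control fell in the same 2 mutants. CBP60G, a calmodulin-binding activator of salicylic acid synthesis, had 3.24, 3.34, 11.5 and 14.1 RPKM in the mutants against 12.5 and 13.9 RPKM in WT, low in nrpe1 and idn2, and fell by 1.74 (SE 0.44, adjusted p = 0.00360) in nrpe1 and fell by 1.71 (SE 0.44, adjusted p = 0.00793) in idn2. MYB30, an activator of cell death in defence, had 11.9, 15.7, 28.5 and 27.3 RPKM in the mutants against 28.9 and 32.1 RPKM in WT and fell by 1.29 (SE 0.23, adjusted p = 3.08e-06) in nrpe1 and fell by 0.92 (SE 0.23, adjusted p = 0.00682) in idn2. AT3G46600, a GRAS family regulator, had 24.7, 34.8, 90.1 and 81.7 RPKM in the mutants against 85.6 and 89.0 RPKM in WT and fell by 1.78 (SE 0.24, adjusted p = 5.67e-11) in nrpe1 and fell by 1.3 (SE 0.24, adjusted p = 1.31e-05) in idn2. AFP3, which binds the abscisic acid regulator ABI5, fell by 1.5 (SE 0.22, adjusted p = 2.07e-09) in nrpe1 and fell by 0.98 (SE 0.22, adjusted p = 0.00109) in idn2. Further falls shared by nrpe1 and idn2 were those of EXLA1, an expansin-like wall protein whose span overlaps AT3G45980, GATL10, a galacturonosyltransferase-like gene, SHM7, of the serine hydroxymethyltransferase family, the aspartyl protease family gene AT5G37540, AT1G32920, AT5G36925, MEE14, AT2G15960 and AT2G05915. AT2G05915 had 0, 0, 1 and 1 reads in the mutants against 6 and 31 in WT, at least 4.36-fold lower in nrpe1 and 4.08-fold lower in idn2 against the floor. With no filter on low values its calls in idn2 and the double mutant were lost (adjusted p = 0.0505 and 0.180), as were those of AT5G36925 in nrpe1 and idn2, and with median-of-ratios scaling those of AT1G32920 in both were lost. AT5G35777, a pseudogene-class locus that was not called, had 2.81, 3.82, 5.57 and 9.15 RPKM in the mutants against 8.60 and 10.3 RPKM in WT, with overlap in the double mutant. The pseudogene-class AT3G28160 fell in nrpe1 and idn2 as well, with 12.9, 14.4, 27.5 and 28.7 RPKM in the mutants against 22.7 and 30.5 RPKM in WT, the idn2 call being lost with no filter.

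Other falls were called in nrpe1 and not in idn2. They were seen in the library whose root markers, nearly all 1 gene, summed to 14.4 RPKM. That sum was 36.7 to 46.1 RPKM in the other mutants and 44.6 and 40.1 RPKM in WT. The flower and anther markers of the nrpe1 library stood apart as given above. The part of those tissues in these falls was not tested. AT5G37990, a methyltransferase family gene, had 0, 33, 32 and 66 reads in the mutants against 34 and 92 in WT, at least 14.8-fold lower in nrpe1 against the floor, while the other mutants had 6.49 to 6.62 RPKM against 7.16 and 8.78 RPKM in WT. It fell by 2.92 (SE 0.57, adjusted p = 3.56e-05). Its neighbour AT5G38020, of the same family, had 12, 49, 48 and 117 reads against 46 and 137 in WT and fell by 1.80 (SE 0.48, adjusted p = 0.00840). AT1G47395, of unknown function, had 4.30, 22.0, 32.2 and 32.9 RPKM in the mutants against 20.3 and 25.4 RPKM in WT and fell by 2.16 (SE 0.25, adjusted p = 9.24e-16). AT1G35210 had 3, 11, 27 and 135 reads in the mutants against 20 and 65 in WT and fell by 2.28 (SE 0.40, adjusted p = 1.60e-06); the double mutant stood above both WT libraries by the size rule. Genes of this kind with lesser changes were CAF1a, an mRNA deadenylase (-1.67, SE 0.23, adjusted p = 3.80e-11), NAC6, a regulator of leaf senescence (-1.53, SE 0.26, adjusted p = 8.22e-07), the calmodulin-like touch gene TCH2 (-1.32, SE 0.33, adjusted p = 0.00326), CDF2, a regulator of flowering time (-1.3, SE 0.37, adjusted p = 0.0166), the amino acid permease AAP5 (-0.94, SE 0.22, adjusted p = 0.00163) and the wall enzyme XTH30 (-1.94, SE 0.60, adjusted p = 0.0375), each with its log2 difference. The TCH2 call was lost with median-of-ratios scaling and the XTH30 call with no filter on low values. Whether these falls differ between nrpe1 and idn2 was not tested.

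In idn2, 6 of the 26 falls were not called in nrpe1. QQS, an orphan gene that affects leaf starch and whose methylation varies between plants, had 19, 0, 3 and 4 reads in nrpe1, idn2, the triple and the double mutant, against 7 and 22 in WT. The idn2 library was at 0 reads, at least 3.20-fold lower than WT, the triple and double mutants were below both WT libraries in RPKM, and nrpe1 lay above them at 11.1 RPKM against 4.99 and 6.61 RPKM in WT. It fell by 2.08 (SE 0.60, adjusted p = 0.0325) in idn2, a call lost with no filter on low values. The pseudogene-class AT2G16367 had 7, 2, 7 and 36 reads in the mutants against 9 and 30 in WT and fell by 1.69 (SE 0.49, adjusted p = 0.0381) in idn2. The noncoding AT2G06002 had 1, 0, 0 and 1 reads against 6 and 14 in WT, low in all 4 mutants, and passed limma in idn2, a call lost with a pseudocount of 0.25, with no filter and with quantile normalization (adjusted p = 0.0887, 0.347 and 0.0851). UMAMIT20, a transporter of the nodulin family, and AT4G05071 also fell in idn2, and the AT4G05071 call was lost with no filter and with quantile normalization. AT3G29000, a calcium-binding family gene, met both rules there with 2 reads, against 12 and 36 in WT, and met the size rule in nrpe1 with 3.

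In the triple mutant 5 members fell. AT1G34060, a pyridoxal phosphate enzyme family gene, had 9.90, 14.4, 6.53 and 10.2 RPKM in nrpe1, idn2, the triple and the double mutant, against 14.4 and 21.1 RPKM in WT, with the triple mutant lowest, and fell by 1.29 (SE 0.34, adjusted p = 0.0454). CML30, a calmodulin-like gene that overlaps AT2G15690, and AT4G06536, of the SPRY domain family, fell by 1.16 (SE 0.27, adjusted p = 0.0126) and fell by 1.44 (SE 0.34, adjusted p = 0.0105) in the triple mutant, and in nrpe1 fell by 1.09 (SE 0.27, adjusted p = 0.00376) and fell by 1.95 (SE 0.34, adjusted p = 9.47e-07). AT3G45260, a zinc finger gene, fell by 0.92 (SE 0.24, adjusted p = 0.0480). Its call was lost with a pseudocount of 0.25, with no filter and with quantile normalization, and that of AT1G34060 with the added read taken off. Besides AT5G35935, AT2G04460 and the snoRNA gene, AT2G12461 rose, by 0.99 (SE 0.22, adjusted p = 0.00331), on 21 reads against 12 and 18 in WT, a ratio of 2.18 (1.19 to 3.94), and lost its call with quantile normalization.

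In the double mutant AT1G47400 rose and 5 genes fell. AT1G47400, of unknown function, had 9, 17, 24 and 85 reads in the mutants against 12 and 39 in WT, and rose by 1.32 (SE 0.30, adjusted p = 0.00512) in the double mutant, whose RPKM was the highest of the 6 libraries. The falls were PHI-1, AT2G05915 (-2.39, SE 0.56, adjusted p = 0.00874), EXLA1 (-1.04, SE 0.22, adjusted p = 0.000971), MEE14 (-1.03, SE 0.22, adjusted p = 0.00112) and AT2G15960 (-0.96, SE 0.23, adjusted p = 0.00874), each of which had also fallen in nrpe1 and idn2. The AT2G05915 call is the one lost with no filter. The double mutant and WT replicate 2 are the deeper libraries, and against WT replicate 2 alone these 5 genes had 328, 1, 224, 255 and 88 reads in the double mutant, against 651, 31, 488, 515 and 171 in that WT library.

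AT2G15960, annotated as a stress-induced protein, was the 1 member that fell in all 4 mutants. It had 55, 39, 36 and 88 reads in nrpe1, idn2, the triple and the double mutant, against 86 and 171 in WT, or 47.5, 36.2, 34.5 and 40.1 RPKM against 82.8 and 75.5 RPKM. All 4 mutants lay below both WT libraries, with log2 differences of -0.72, -1.11, -1.17 and -0.96, and the nrpe1 call was lost with a pseudocount of 0.25 and with no filter on low values. MEE14, named for a maternal-effect embryo arrest mutant, had 28.1, 28.6, 31.0 and 26.4 RPKM in the mutants against 58.2 and 51.9 RPKM in WT, again with no overlap, and passed limma in 3. It is the neighbour of AT2G15880, 1 pair of adjacent tested members called the same way in both nrpe1 and idn2. That was 1 pair among 74 called members in nrpe1 and 1 among 32 in idn2. On the arms there were 40 pairs among 654 called genes in nrpe1 and 14 among 339 in idn2. Over all 4 comparisons 29 members rose and 55 fell in some mutant. Of the rises, 2 were in all 4 mutants, 5 in 2 and 22 in 1. Of the falls, 1 was in all 4 mutants, 4 in 3, 17 in 2 and 33 in 1. AT2G05765, 1 of the 2 that rose in all 4, is the snoRNA gene that had 2 reads in idn2. The same tally was not made for arm genes or over all genes, so it does not set the members apart. Because the mutants share their WT libraries, a WT library that deviates moves all 4 counts together.

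**Figure D4:**
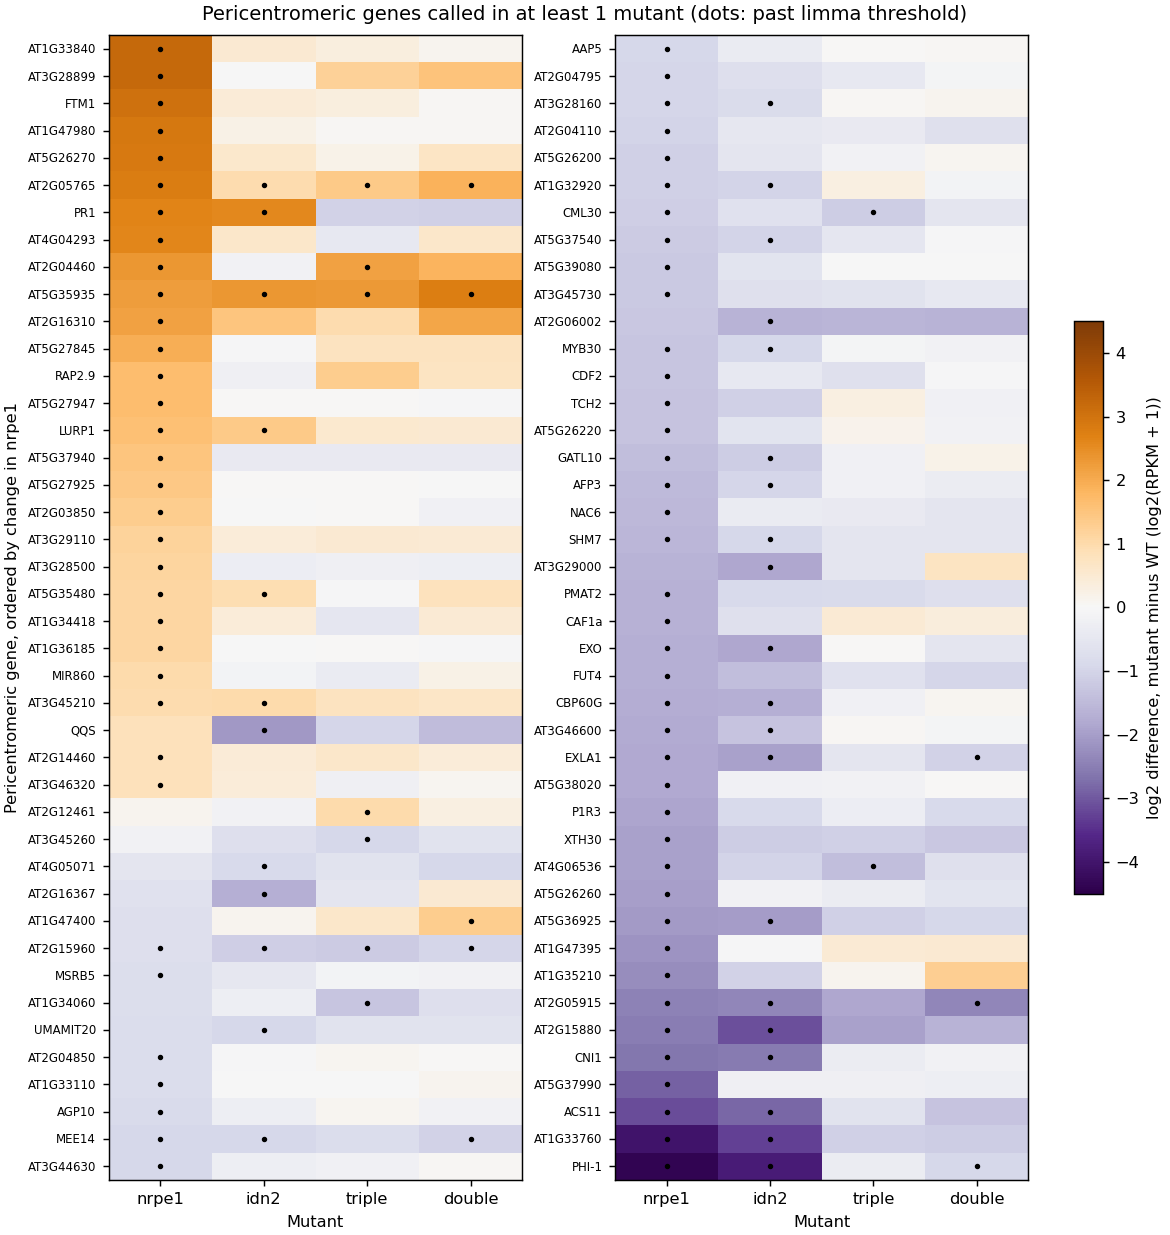
log2 difference from WT (colour, on log2(RPKM + 1)) of every pericentromeric gene called by limma in at least 1 mutant, ordered by its value in nrpe1 and continued in the right panel, with mutants as columns and dots for calls. AT5G35935 is high in all 4 columns, and PHI-1, at the lower right, has -4.38 in nrpe1 and -3.85 in idn2 beside -0.33 and -0.94 in the triple and double mutants.

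Members of the lists of known genes were mostly not called. Of 43 genes of RdDM and silencing, 3 are pericentromeric, and 0 of 3 passed limma in any mutant. DCL3, the dicer that makes RdDM small RNAs, overlaps AT3G43930 and had 38, 41, 35 and 112 reads in the mutants against 42 and 118 in WT. DRD1, the remodeller that works with RNA polymerase V, had 59, 40, 52 and 153 reads against 36 and 136, and CLSY1, which recruits RNA polymerase IV, had 57, 42, 40 and 105 reads against 59 and 143. Their medians were -0.24, -0.26, -0.31 and 0.10 in nrpe1, idn2, the triple and the double mutant, beside 0.02, -0.02, -0.05 and 0.04 over all genes tested. In the jasmonate and salicylic acid list PR1 was the 1 of 5 members called (MYC2, OPR3, LOX2 and RAP2.6 were not), with list medians of -0.09, -0.21, -0.08 and -0.34. Of the nitrogen and sugar members, PHI-1 fell in 3 mutants as given above and NIA2, a nitrate reductase, and STP13, a hexose carrier, passed in none; the medians were -0.15, 0.04, -0.33 and -0.26.

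The photosynthesis members, 8 of 22 listed genes, passed limma in 0 of 4 comparisons. Their medians were 0.31, 0.43, 0.29 and -0.31, with the negative value in the double mutant, a deeper library. Depth cannot be told apart here from any other difference between the 2 deeper libraries and the rest. LHCB2.2, an antenna protein of photosystem II, had 118, 128, 125 and 84.5 RPKM in nrpe1, idn2, the triple and the double mutant, against 131 and 84.5 RPKM in WT, so the 2 deeper libraries were the low ones whatever the genotype. The myrosinases TGG1 and TGG2, which cleave glucosinolates, showed the same order, at 169, 179, 179 and 102 and 149, 159, 163 and 94.5 RPKM against 175 and 99.7 and 158 and 92.9 RPKM in WT, as did the polyubiquitin gene UBQ10, at 127, 123, 105 and 78.2 RPKM against 107 and 77.4 RPKM. The members with the highest WT levels were genes of the photosystems and the chloroplast ATP synthase, PSBX, ATPD and ATPC1, with 402 to 439 RPKM in WT replicate 1 and 222 to 234 RPKM in WT replicate 2. Of the 5 highest of each window, EXO and TCH2 were the ones called in any mutant.

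The 19 protein-coding members that fell in both nrpe1 and idn2 were also compared by promoter letters. Over the same windows of 250 bases before to 50 after the start, CGCG, the core of a box bound by calmodulin-binding CAMTA activators, was present in 8 of 19 (42.1%), against 11.2% of 1481 protein-coding members with 10 reads or more and 13.2% of all matched genes. Of 230 protein-coding arm genes that fell in both, 17.4% held it, against 14.1% of arm genes with 10 reads or more. TTGAC, the core of the box bound by WRKY factors, was in 68.4% of the 19, 48.7% of members with 10 reads or more and 50% of all matched genes; CACGTG was in 15.8%, 8.10% and 7.04%, and GCCGCC in 0%, 1.76% and 2.71%. Both strands were searched, and CGCG reads the same on either, as does CACGTG. These 4 motifs and the group were chosen with the calls known, and no test was made. The windows of 3 of the 8 genes, PHI-1 at chr1:12851733-12852032, MYB30 at chr3:10910882-10911181 and AT3G46600 at chr3:17157335-17157634 (RefSeq TAIR10.1, plus strand), follow with CGCG in capitals.
PHI-1: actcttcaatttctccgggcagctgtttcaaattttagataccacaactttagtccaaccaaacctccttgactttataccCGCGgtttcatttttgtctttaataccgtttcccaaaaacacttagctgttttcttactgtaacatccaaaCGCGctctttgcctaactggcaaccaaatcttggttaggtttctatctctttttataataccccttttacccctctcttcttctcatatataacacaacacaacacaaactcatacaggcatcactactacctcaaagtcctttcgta
MYB30: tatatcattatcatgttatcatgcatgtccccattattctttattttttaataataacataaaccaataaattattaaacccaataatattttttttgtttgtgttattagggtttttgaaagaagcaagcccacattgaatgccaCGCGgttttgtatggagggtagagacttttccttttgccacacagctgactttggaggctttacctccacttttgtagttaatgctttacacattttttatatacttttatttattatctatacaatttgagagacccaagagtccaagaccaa
AT3G46600: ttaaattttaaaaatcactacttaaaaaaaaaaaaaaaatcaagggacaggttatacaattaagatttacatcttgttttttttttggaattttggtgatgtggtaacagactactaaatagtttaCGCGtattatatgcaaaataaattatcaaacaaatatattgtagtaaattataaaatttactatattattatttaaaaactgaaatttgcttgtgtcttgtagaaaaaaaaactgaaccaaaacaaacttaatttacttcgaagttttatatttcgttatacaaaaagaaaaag
PHI-1 holds 2 matches and the others 1 each.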

How the data were processed

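RPKM (reads per kilobase of gene span, scaled to library depth) for 32947 genes in each of 6 libraries, as deposited by the authors, were analysed. Per the labels, libraries were made with the TruSeq mRNA protocol of Illumina. Reads were processed with Bowtie (version not given), per the submitters' processing notes, and how strand, duplicates and reads with several matches were treated is unknown here. Every deposited value was a whole multiple of its library's step over the gene's span (100%, tolerance 1e-06), with a lowest multiple of 1, read as 1 added read. Read numbers have it taken off, and tests used the RPKM as deposited. Positions are in TAIR8, with 1 added to the deposited starts and stops. RefSeq TAIR10.1 served for symbols, classes and promoter windows through the locus identifier (32365 matched, 582 did not), and for the mitochondrial insertion, placed with minimap2 2.31. Of the members, 296 overlap another gene and share its reads.

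Differences were tested with limma 3.58.1 in R 4.3.3 on log2(RPKM + 1), with a mean per genotype and a trend in the spread, over genes that reached 1 RPKM in some library, and p-values were adjusted by Benjamini-Hochberg over all genes tested, with a threshold of 0.05. Each mutant has 1 library and was taken to vary as the WT pair does. The fit had 1 residual degree of freedom and infinite prior degrees of freedom. The size rule asked for at least 2-fold from each WT library. Ratios of reads scaled to depth carry exact 95% binomial intervals against both WT libraries pooled, and the floor was 3 counts over the WT pair or in the mutant library. Intervals and floors cover counting error only. 1 read in a gene of 2 kb is worth 0.0832 to 0.180 RPKM. Scripts used Python 3.11.15, numpy 2.4.6, pandas 2.3.3 and scipy 1.17.1, and the fit was tested on simulated data.

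The genes named were up to 10 members per direction and mutant that passed limma and the size rule, the 5 members with the highest WT level per window and the members of lists of known genes. Other called members, AT5G35777, the most abundant pseudogene-class loci, the local groups and the promoter motifs were chosen after their values were seen. The members and lists were themselves chosen with earlier results of these data known. Alternatives covered the pseudocount, the filter, scaling, the added read, the fold of the size rule and each WT library left out.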

Additional observations from a re-analysis of the deposited data

How the results depend on the processing

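No paired analysis was possible because each mutant has a single library, so that mutants and WT share fewer than 2 replicate numbers. Leaving out a WT library leaves limma no residual degrees of freedom, so only the size rule was recomputed. Without WT replicate 1 or WT replicate 2 it counted 46 to 50 members up and 59 to 75 down in nrpe1, 16 to 18 and 34 to 52 in idn2, 12 to 16 and 27 to 49 in the triple mutant, and 14 to 33 and 16 to 20 in the double mutant, against 29 and 49, 6 and 24, 6 and 19, and 8 and 8 with both. With a pseudocount of 0.25 the size rule counted 51 up in nrpe1, 10 and 40 in idn2, 15 and 42 in the triple and 16 and 16 in the double mutant. At 3-fold it counted 13 and 22, 2 and 13, 2 and 3, and 3 and 2. Shares over all genes were not counted for either of these settings of the size rule. By limma, median-of-ratios scaling, which shifts WT replicate 2 by 0.12 and the double mutant by 0.11 on the log2 scale and the others by less than 0.05, gave 43 up and 91 down in nrpe1 (1.88% and 3.98% of members, 1.67% and 4.71% of arm genes), 15 and 48 in idn2 (0.657% and 2.1%, arms 0.742% and 2.6%), 23 down in the triple mutant (1.007%, arms 0.936%) and 12 and 25 in the double mutant (0.525% and 1.09%, arms 0.493% and 0.717%), so the arm shares moved too. With the added read taken off, an alternative chosen after seeing the data, limma gave 58 up in nrpe1, 19 up in idn2, 12 and 22 in the triple and 15 and 9 in the double mutant. A filter of 10 reads gave 13 down in the triple mutant (0.811% of members, 0.427% of arm genes) and 7 up in the double mutant (0.437%, arms 0.264%). Quantile normalization gave 6 up in the double mutant (0.263%, arms 0.204%). The causes of these shifts were not tested. Limma calls lost under at least 1 alternative numbered 20 of 74 in nrpe1, 9 of 32 in idn2, 4 of 9 in the triple and 1 of 8 in the double mutant, and none of the called differences reversed its sign. With at least 10 reads in place of 1 RPKM, 20.3%, 19.8% and 19.7% of members were expressed in nrpe1, idn2 and the triple mutant, against 19.7% in WT replicate 1. Among protein-coding members alone the shares were 46.3%, 45.7%, 45.4% and 47.2% in nrpe1, idn2, the triple and the double mutant, against 45.7% and 46.8% in WT. As a share of summed RPKM the members took 8.51%, 8.49%, 8.39% and 8.15% in the mutants against 8.39% and 8.07% in WT, and without the member with the most reads 8.17%, 8.15%, 8.03% and 7.95% of reads against 8.02% and 7.90%. Without RNA genes and the mitochondrial insertion the share in WT replicate 2 was 7.98%. Depth limits the low members: 517 tested members had 0 reads in every library.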
